A study of Mus musculus with 2 samples.

Results

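Plasma cells that carry immunoglobulin heavy chain transcripts other than IgA were examined in optic nerve libraries of Nf1-OPG mice. These mice model the optic pathway glioma of neurofibromatosis type 1. The cells were chosen by immunoglobulin heavy chain, Jchain and Mzb1 counts. A cell was included when it held at least 10 unique molecular identifiers (UMIs, counted transcript molecules) of Jchain, at least 2 of Mzb1, and at least 20 of the highest among Ighm, Ighg1, Ighg2b, Ighg2c and Ighg3, with that gene above Igha. Of 25652 cells kept, 841 met these limits, which is 3.28% (exact Clopper-Pearson 95% interval 3.06 to 3.50, covering counting error only). Library C-ON held 186 among 8834 kept cells (2.11%, 1.82 to 2.43) and library FMC_new 655 among 16818 (3.89%, 3.61 to 4.20).

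Both libraries carry the same genotype, Nf1 flox/mut with GFAP-Cre on a C57BL/6 background, at 12 weeks of age. The mut allele is carried by every cell, plasma cells included, and the GFAP promoter directs Cre, and with it loss of the floxed allele, to the glial lineage. The labels describe nerves of 10 mice combined into a single suspension, dissociated, and cleared of debris and myelin, with no sort of the optic nerve cells stated, and transcripts were read from their 5′ ends. One title reads control and the other FMC new without explanation, no library of another genotype or of treated mice was analysed here, and n is 2 libraries. Values of the libraries are therefore given side by side, with no test between them.

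Plasma cells are terminally differentiated B cells that secrete antibody. During class switching the heavy chain variable segment of a B cell is moved from the Ighm constant gene to a downstream constant gene, so that daughters of a B cell can make IgM, IgG or IgA with the same variable regions. Jchain encodes the joining chain that links IgM and IgA into polymers, although plasma cells of other classes transcribe it too, and Mzb1 encodes an endoplasmic reticulum chaperone that helps antibody assembly.

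The IgM part of the name given to these cells was not borne out by the counts. An Ighg gene led in 840 of the 841 cells (99.9%), and Ighm led in 1. That cell, from FMC_new, held 160 UMIs of Ighm, 2 of Igha and 0 of every Ighg gene, beside 311 of Jchain and 66 of Mzb1. Its most abundant variable genes were Ighv1-84 with 1907 UMIs and Igkv1-110 with 3094 UMIs. Ighm was detected in 4.84% of the 186 cells of C-ON and 18.8% of the 655 cells of FMC_new, at median depths of 12264.5 and 11152 UMIs per cell. It was also detected in 5.69% and 13.7% of T cells, which do not transcribe it, at 3908 and 3595 UMIs, so that detection alone does not mark IgM cells here. Among all 25652 kept cells, 4 held 20 or more UMIs of Ighm and 2 of these were among the 841. The cells are called IgG-led plasma cells from here on, with the single Ighm-led cell included in every value.

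The IgG classes are told apart by constant gene sequence. Reads from the 5′ end of a transcript can reach the part close to the variable region, but where the counted reads fell was not tested. The first 150 bases of the first constant exon of each gene are shown because they lie close to the variable region. They were read from the GENCODE vM21 transcripts of GRCm38, on the minus strand of chromosome 12, and capitals mark bases that differ from Ighg2c.
Ighg2c, chr12:113288783-113288932: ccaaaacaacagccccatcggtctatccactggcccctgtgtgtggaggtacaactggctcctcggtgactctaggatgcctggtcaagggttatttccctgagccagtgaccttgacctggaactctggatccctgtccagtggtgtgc
Ighg2b, chr12:113307784-113307933: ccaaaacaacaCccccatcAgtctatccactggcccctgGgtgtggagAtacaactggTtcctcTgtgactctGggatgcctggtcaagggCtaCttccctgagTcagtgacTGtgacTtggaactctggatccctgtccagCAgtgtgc
Ighg1, chr12:113330374-113330523: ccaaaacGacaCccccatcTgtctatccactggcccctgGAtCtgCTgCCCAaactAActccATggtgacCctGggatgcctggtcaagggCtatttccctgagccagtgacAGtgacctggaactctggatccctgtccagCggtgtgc
Ighg3, chr12:113361083-113361232: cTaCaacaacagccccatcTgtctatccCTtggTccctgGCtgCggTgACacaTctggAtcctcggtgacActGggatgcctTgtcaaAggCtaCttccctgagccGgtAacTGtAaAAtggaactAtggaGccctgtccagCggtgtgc
Over the whole exon of 291 bases, Ighg2b differed from Ighg2c at 36 bases (87.6% identity), Ighg1 at 35 (88.0%) and Ighg3 at 63 (78.4%). The longest stretch without a difference was 34 bases for Ighg2b, 28 for Ighg1 and 18 for Ighg3. In this exon Ighg2b and Ighg1 were about equally near to Ighg2c. How the counting assigned reads that match several of these genes was not tested.

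Ighg2c and Ighg2b together led most cells, in different proportions in each library. In C-ON, Ighg2c led 130 cells (69.9%, 62.8 to 76.4), Ighg2b 38 (20.4%, 14.9 to 26.9), Ighg1 17 (9.14%, 5.41 to 14.2) and Ighg3 1. In FMC_new, Ighg2b led 304 cells (46.4%, 42.5 to 50.3), Ighg2c 290 (44.3%, 40.4 to 48.2), Ighg1 60 (9.16%, 7.06 to 11.6) and Ighg3 0. The intervals of Ighg2b and of Ighg2c do not overlap between libraries, whereas the shares of Ighg1 nearly coincide. These genes belong to the rule, so the shares are a description, and a difference between 2 single libraries has no replicate check.

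**Figure D1:**
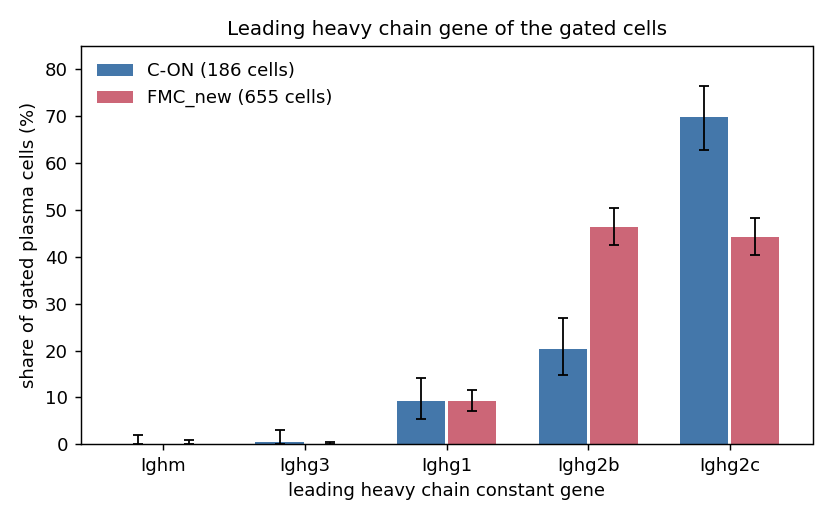
Share of the gated plasma cells (y axis, %) led by each heavy chain constant gene (x axis), with 186 cells of C-ON in blue and 655 of FMC_new in red; error bars are exact 95% binomial intervals. Ighg2c leads 69.9% of cells in C-ON and 44.3% in FMC_new, and Ighm leads 0 and 1 cells.

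The leading gene was seldom in doubt. It held at least 2 times the UMIs of the next of the 5 genes in 833 of 841 cells and at least 10 times in 767. The other 8 cells were all Ighg2b-led cells of FMC_new with Ighg2c next. In 105 of the 130 Ighg2c-led cells of C-ON the next gene was Ighg2b, at 20 or more UMIs in 13 of them. Median UMIs of the leading gene in C-ON were 421 for Ighg1, 350 for Ighg2b and 149 for Ighg2c. In FMC_new they were 162.5, 188 and 162, closer to each other than in C-ON. Igha had a median of 1 UMI per IgG-led cell in both libraries, with a maximum of 273 in C-ON and 165 in FMC_new.

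Jchain ranged from 12 to 1265 UMIs per cell in C-ON (median 281) and from 10 to 1817 in FMC_new (median 185). Among the 3 classes of more than 1 cell it was highest in Ighg2c-led cells of both libraries, with medians of 335.5 and 260 UMIs against 195.5 and 125 in Ighg2b-led cells and 243 and 166.5 in Ighg1-led cells. IgA plasma cells, which met the same limits on Jchain and Mzb1 but had at least 20 UMIs of Igha and Igha highest, numbered 206 in C-ON and 491 in FMC_new. Their median Jchain was 628 and 585 UMIs, above the IgG-led medians, whereas their median Mzb1 was 21 and 23 UMIs against 28 and 28. Both genes belong to the rule.

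Some cells lay close to a limit. Just inside the Jchain limit (10 to 14 UMIs) were 9 cells with a median of 11, and just outside (5 to 9 UMIs) were 5 with a median of 7. Mzb1 of 2 or 3 UMIs was held by 48 cells and of 0 or 1 by 19 others that met the remaining limits. The leading gene stood at 20 to 24 UMIs in 35 cells and at 15 to 19 in 35 others. Of cells near the border with Igha, 15 had a leading gene above Igha by less than 2 times, and in 14 others Igha was at or above it by less than 2 times. A further 409 kept cells passed the Jchain and Mzb1 limits without entering the IgG-led or IgA class, 31 of them in C-ON. Of these, 52 held 200 or more UMIs of heavy chain variable genes, and 0 of the 52 were led by Ighm.

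The upper limit on UMIs removed a large part of these cells. Of 1209 deposited barcodes that met the gene limits, 368 (30.4%) failed the limits on cells, 336 of them for more than 20000 UMIs. The loss was 20.9% in C-ON and 32.8% in FMC_new. Immunoglobulin transcripts made up a median of 55.7% of the UMIs of an IgG-led cell in C-ON and 58.8% in FMC_new, against 0.112% and 0.891% in T cells. The libraries shared 296 cell barcodes among 10845 and 21341, and 1 barcode among the IgG-led cells of both.

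Light chains were almost entirely kappa. Each antibody pairs its heavy chain with a kappa or a lambda light chain, and neither was used by the rule. Igkc exceeded the lambda constant genes in 834 of 841 IgG-led cells. The 7 others (0.832%, 0.335 to 1.71) comprised 1 of 186 in C-ON (0.538%) and 6 of 655 in FMC_new (0.916%, 0.337 to 1.98). A lambda variable gene led in 0 of the 841 cells, and the exact interval reaches 0.438%. Among IgA plasma cells of FMC_new, lambda constant genes led in 23 of 491 (4.68%, 2.99 to 6.95), above the IgG-led interval of that library, and a lambda variable gene led in 12. In C-ON the IgA count was 1 of 206, beside 1 of 186 IgG-led cells. With 1 library of each kind the shares were not tested.

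Variable genes were concentrated on a few segments. Ighv1-81 was the leading heavy chain variable gene of 138 of 841 cells, followed by Ighv6-3 in 80, Ighv8-12 in 77, Ighv1-64 in 48, Ighv1-26 in 45, Ighv1-19 in 42, Ighv1-52 in 30, Ighv8-8 in 27, and Ighv1-72 and Ighv1-80 in 26 each. Among light chains Igkv10-96 led in 107 cells, Igkv8-21 in 83, Igkv5-43 in 80, Igkv4-57 in 56, Igkv6-17 in 53, Igkv1-117 in 48, Igkv3-2 in 46, Igkv1-110 in 44, Igkv4-58 in 29 and Igkv14-111 in 25. Igkv10-96 led in 74 of 186 cells of C-ON (39.8%) and 33 of 655 of FMC_new. Ighv1-81 led in 46 cells of C-ON (24.7%) and 92 of FMC_new (14.05%). The heavy chain call was firmer in FMC_new, where the leading gene held a median of 99.4% of a cell's heavy chain variable UMIs, than in C-ON, where it held 61.4%. Many Ighv1 segments are close copies of each other, and how reads that match several of them were assigned was not tested.

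Heavy and light chain variable genes were next paired within each cell, taking genes of at least 20 UMIs. The 4 leading pairs discussed below are built from the following germline segments, of which the last 90 coding bases are shown, with the last in-frame cysteine codon in capitals. The junction with the D or J segment, where cells that share a germline pair can still differ, lies just after it.
Ighv6-3: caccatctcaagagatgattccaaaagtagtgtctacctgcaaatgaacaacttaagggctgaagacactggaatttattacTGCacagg
Igkv5-43: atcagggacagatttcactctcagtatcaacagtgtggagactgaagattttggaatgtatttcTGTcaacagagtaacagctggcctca
Ighv8-12: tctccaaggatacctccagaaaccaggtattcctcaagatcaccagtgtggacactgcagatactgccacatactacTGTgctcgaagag
Igkv8-21: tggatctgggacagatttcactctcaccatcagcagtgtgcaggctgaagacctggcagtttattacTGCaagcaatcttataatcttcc
Ighv1-72: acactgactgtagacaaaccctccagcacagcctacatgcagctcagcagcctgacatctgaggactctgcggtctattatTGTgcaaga
Ighv1-52: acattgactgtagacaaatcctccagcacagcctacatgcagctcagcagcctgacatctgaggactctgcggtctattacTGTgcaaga
Igkv10-96: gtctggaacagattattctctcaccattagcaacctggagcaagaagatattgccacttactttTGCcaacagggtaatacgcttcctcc
The sequences come from the same GENCODE transcripts and are germline, not read from the cells. Ighv1-72 and Ighv1-52 differ at 3 of these 90 bases. On GRCm38 the heavy chain segments lie on chromosome 12, for example Ighv6-3 at chr12:114391712-114392169 and Ighv8-12 at chr12:115647945-115648387, and the kappa segments on chromosome 6, for example Igkv5-43 at chr6:69823355-69823943 and Igkv10-96 at chr6:68631963-68632442. No junction sequence is in the deposited counts, so a shared pair is not a clone.

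In C-ON, 155 cells could be paired and fell on 26 pairs, the 5 largest of which held 59.4% of them. The other 31 cells had no heavy chain variable gene of 20 UMIs. The largest pair, Ighv1-72 with Igkv10-96, held 24 cells, 17 led by Ighg1 and 7 by Ighg2c. All 17 Ighg1-led cells of C-ON were in this pair. Ighv1-52 with Igkv10-96 held 22 cells and Ighv2-9 with Igkv10-96 held 17, all led by Ighg2c. Ighv1-81 with Igkv6-20 held 16 cells, all Ighg2c-led, whereas Ighv1-81 with Igkv8-30 held 13, of which 11 were Ighg2b-led. In Ighv1-52 with Igkv10-96 the heavy chain segment had a median of only 65.5 UMIs, against 1493.5 for Ighv1-72.

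In FMC_new, 650 cells could be paired and fell on 91 pairs, the 5 largest of which held 44.6%. Ighv6-3 with Igkv5-43 was the largest with 77 cells (11.8%), 57 led by Ighg2c, 19 by Ighg2b and 1 by Ighg1. Ighv8-12 with Igkv8-21 held 72 cells, 48 Ighg2b-led and 24 Ighg2c-led. Ighv1-81 with Igkv4-57 held 56 cells, Ighv1-26 with Igkv3-2 held 45, and Ighv1-64 with Igkv6-17 held 40. Of the 14 pairs with at least 10 cells, 10 held at least 2 cells of each of 2 IgG classes. Others held a single class, such as Ighv3-2 with Igkv4-58 with 20 Ighg2c-led cells and Ighv1-66 with Igkv14-111 with 19 Ighg2b-led cells.

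IgG-led and IgA plasma cells overlapped in the pairs they used. In FMC_new 47 pairs occurred in both classes, which is 51.6% of the IgG-led pairs and 42.3% of the IgA pairs. These held 79.8% of paired IgG-led cells and 77.3% of paired IgA cells. In C-ON 13 pairs occurred in both, 50% of the IgG-led and 46.4% of the IgA pairs, holding 43.2% and 65.99% of the cells. Ighv1-26 with Igkv3-2 held 67 IgA cells beside its 45 IgG-led cells, and Ighv1-64 with Igkv6-17 held 61 beside 40. By contrast, Ighv1-72 with Igkv10-96 and Ighv2-9 with Igkv10-96 in C-ON and Ighv1-66 with Igkv14-111 in FMC_new held 0 IgA cells.

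Few pairs of IgG-led cells recurred in both libraries. There were 8, which is 30.8% of the C-ON pairs and 8.79% of the FMC_new pairs, with 58 and 123 cells. Ighv8-12 with Igkv8-21 held 2 IgG-led and 28 IgA cells in C-ON, against 72 and 40 in FMC_new. Ighv1-81 with Igkv8-30 held 13 IgG-led and 0 IgA cells in C-ON, against 7 and 13 in FMC_new. In these examples the balance of classes differed between the libraries, whereas Ighv1-19 with Igkv6-17 held 2 and 6 IgG-led cells and Ighv1-64 with Igkv4-59 held 1 and 1, with 0 IgA cells in either library. The other 4 pairs held 1 to 3 plasma cells in the library where they were rarer.

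**Figure D2:**
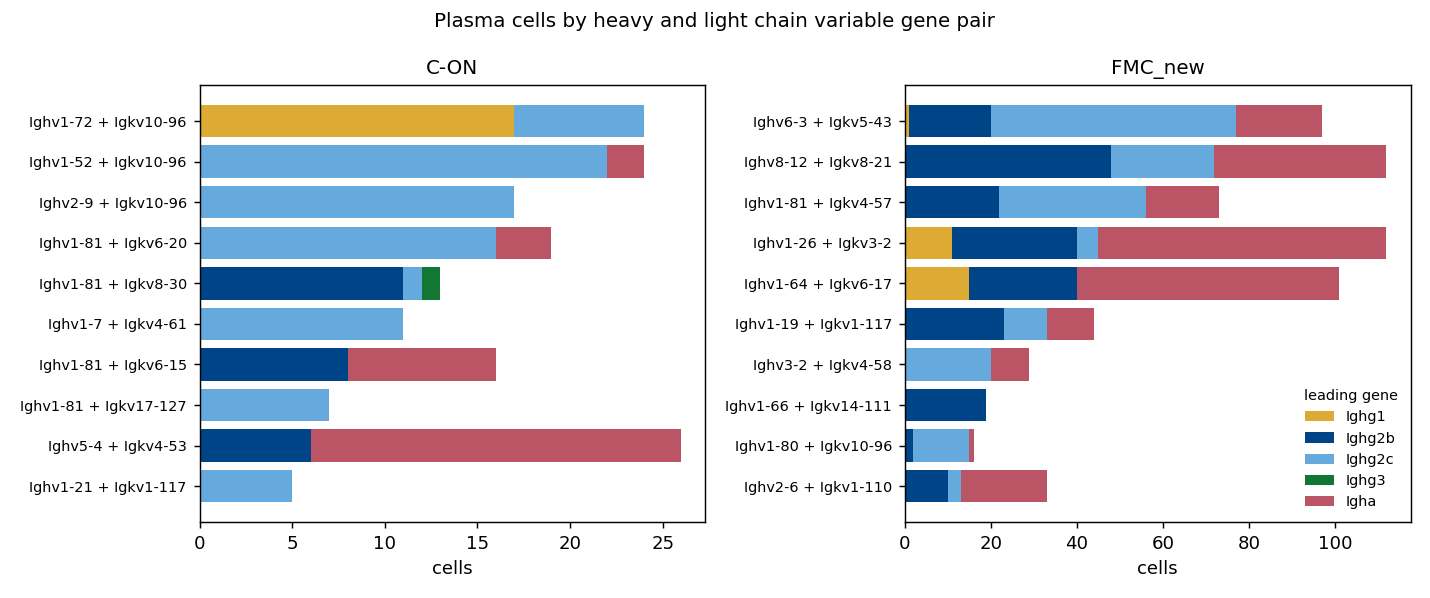
Number of plasma cells (x axis) with each heavy and light chain variable gene pair (y axis) in C-ON (left) and FMC_new (right), for the 10 pairs with the most IgG-led cells in each library, coloured by leading constant gene with IgA cells in red. Ighv1-72 with Igkv10-96 holds 17 Ighg1-led cells and 0 IgA cells in C-ON, whereas Ighv1-26 with Igkv3-2 holds 45 IgG-led and 67 IgA cells in FMC_new.

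Outside the immunoglobulin genes the cells carried transcripts that mark plasma cells, although not every listed gene was above B cells. The unit is CPM (counts per 1e6), for which the summed UMIs of a gene in a class and library were scaled to the class total outside immunoglobulin genes, Jchain and Mzb1. Xbp1, a transcription factor of secretory cells, was at 1751 CPM in C-ON and 1975 in FMC_new, against 135 and 97.3 in B cells and 77.2 and 91.2 in T cells. Sdc1, which encodes the plasma cell surface protein CD138, was at 319 and 269 CPM, against 4.83 and 0.784 in B cells. The 12 genes of the plasma cell identity list summed to 4360 and 5201 CPM, against 1155 and 1129 in B cells. Cd38 and Fcrl5 of that list went the other way. With cells thinned to the same number of UMIs, Cd38 was detected in 1.09% and 3.78% of IgG-led cells, against 13.9% and 15.5% of B cells. Fcrl5 was detected in 0.546% and 0.472%, against 5.56% and 5.58%. Here B cells are those with Ms4a1, at least 2 UMIs of Cd79a and under 10 of Jchain (36 in C-ON and 235 in FMC_new). T cells are the remaining cells with at least 2 UMIs of Cd3e and under 10 of Jchain (826 and 3033). The 12 genes of the mature B cell list summed to 3259 and 4365 CPM, against 5760 and 5626 in B cells. Most of this was Cd79a, a signalling chain of the B cell receptor, at 2332 and 3132 CPM against 2015 and 1723 in B cells, and its partner Cd79b was at 521 and 509 against 706 and 643. Pax5, a transcription factor of B cell identity, was at 0 UMIs in C-ON and 1 in FMC_new, and Cd22, an inhibitory receptor, likewise at 0 and 1. These contrasts are close to the one the rule used and are given without a test.

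The IgG-led cells were compared with IgA plasma cells of the same suspensions, to ask which genes outside the rule differ with the class of antibody. UMIs were summed per class and library, and the 4 sums were tested with edgeR's quasi-likelihood test with the library as a block. Of 10283 genes tested, 104 were higher in IgG-led cells (1.01% of those tested) and 102 lower (0.992%), each at an adjusted p under 0.05. All but 5 of these 206 genes (S100a9, S100a8, Camp, Cga and Pomc) differed in the same direction in both libraries. The result depends on the block, since 0 genes passed in edgeR without it (338 at an unadjusted p under 0.05). It also depends on the limits on cells, since 0 passed in edgeR when cells above 20000 UMIs and outside the other limits were kept (669 at an unadjusted p under 0.05). The block removes the libraries' own spread, so what remains is how far the class difference varied between the 2 libraries. With 4 sums this is poorly known for a single gene, and edgeR combines it with a trend over all genes. The p-values and SE therefore rest in large part on that shared spread. A gene could pass without differing alike in both libraries, as the 5 genes named above did. Whether the libraries come from separate groups of mice is not given in the sources used here.

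**Figure D3:**
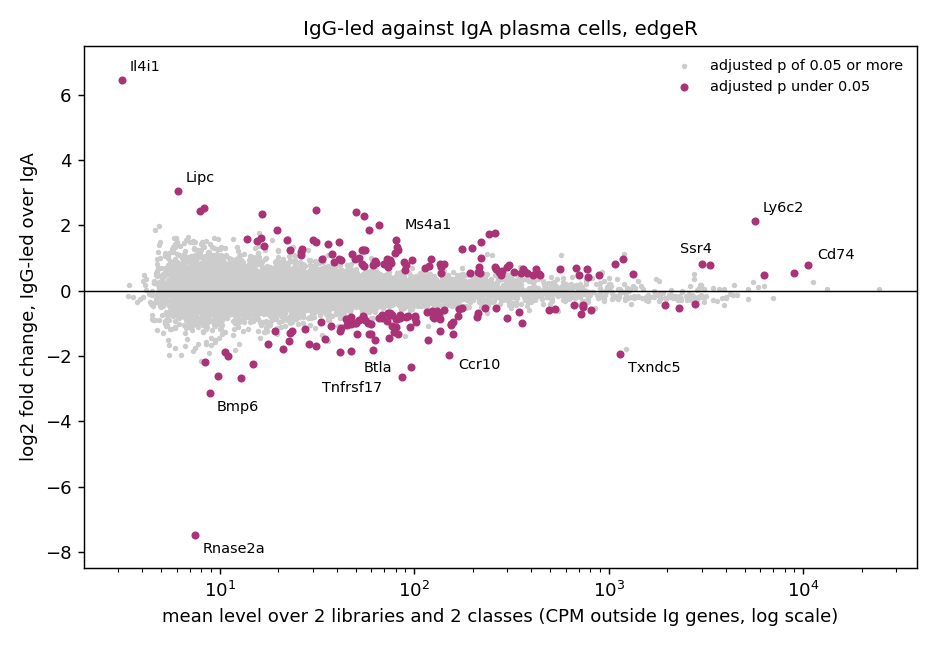
Fitted log2 fold change of IgG-led over IgA plasma cells (y axis) against mean level in CPM (x axis, log scale) for the 10283 genes tested, with the 206 genes at an adjusted p under 0.05 in purple. Ly6c2 stands apart among abundant genes at 2.14, Tnfrsf17 is at -2.64, and the values of Il4i1 and Rnase2a are extreme because a class had 0 UMIs.

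Ly6c2, a surface protein of the Ly6 family, gave the smallest adjusted p. It was at 12876 CPM in IgG-led and 2835 in IgA plasma cells of C-ON, and at 5587 and 1329 in FMC_new. Both libraries had the IgG-led value more than 4 times higher, with a log2 fold change of 2.14 ± 0.09 (SE, edgeR adjusted p = 6.79e-10). B cells stood at 53.2 and 86.3 CPM and T cells at 529 and 428, below either plasma cell class. After thinning each cell to 1000 UMIs outside the immunoglobulin genes, Ly6c2 was detected in 85.8% and 69.9% of IgG-led and 53.2% and 37.2% of IgA plasma cells, and without thinning in 97.3% and 83.1% and in 74.3% and 64.4%. Thinning left out 3 and 20 IgG-led and 1 and 4 IgA cells of C-ON and FMC_new with fewer UMIs.

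Of the genes of plasma cell identity, 2 were lower and the others tested did not pass. Tnfrsf17 encodes BCMA, the receptor for the survival factors APRIL and BAFF. It was at 18.8 CPM in IgG-led and 115 in IgA plasma cells of C-ON, and at 28.5 and 181 in FMC_new, a log2 fold change of -2.64 ± 0.17 (edgeR adjusted p = 1.16e-07). Pou2af1, a B cell transcriptional coactivator, was also lower, at 165 against 307 and 267 against 464 CPM. These were the 2 of 11 tested genes of the plasma cell identity list that passed, both lower, and the list's median log2 fold change was -0.11 against 0.00 over all genes. Xbp1 (log2 fold change -0.05, edgeR adjusted p = 0.924), Sdc1 (-0.11, 0.853), Irf4 (0.03, 0.979) and Prdm1 (-0.27, 0.510) did not pass.

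Of 12 survival genes tested, Tnfrsf17, Cd28 and Bcl2 were lower and Epcam was higher, with a list median of 0.30. Cd28, a costimulatory receptor that also sustains plasma cells, was at 49.2 against 101 CPM in C-ON and 52.5 against 117 in FMC_new. Bcl2, an inhibitor of apoptosis, was at 172 against 229 and 157 against 289. Epcam, an adhesion molecule, was at 73.3 against 34.1 and 118 against 68.3. Tnfrsf13b, which encodes the related receptor TACI, was at 309 against 338 and 278 against 408 CPM and did not pass (edgeR adjusted p = 0.230).

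Of the receptors that guide plasma cells to tissues, 2 were higher and 1 was lower. Ccr10, which binds the mucosal chemokine CCL28, was at 42.9 CPM in IgG-led and 199 in IgA plasma cells of C-ON and at 78.8 and 282 in FMC_new (log2 fold change -1.96 ± 0.14, edgeR adjusted p = 5.22e-07). Cxcr3, the receptor for the interferon-induced chemokines CXCL9 and CXCL10, was higher at 205 against 113 and 356 against 117 CPM (1.31 ± 0.17, 0.00228). Cxcr4, the receptor for CXCL12, was higher at 116 against 62.2 and 115 against 69.6. These 3 were the homing receptors that passed of 9 tested, with a list median of 0.11. Itga4, an integrin chain, was at 361 against 422 and 733 against 565 CPM, in opposite directions in the libraries, and did not pass. T cells had Cxcr3 too, in 13.8% and 17.8% of thinned cells, against 16.4% and 23.0% of IgG-led and 12.2% and 10.5% of IgA plasma cells. Without thinning the shares were 40.9% and 44.6% of T cells, 49.5% and 48.5% of IgG-led and 33.5% and 28.3% of IgA plasma cells.

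Of 7 genes of MHC class II and its loading, 3 passed and all 3 were higher in the IgG-led cells, with a list median of 0.79. Cd74, the invariant chain, was at 12302 against 6226 CPM in C-ON and 14334 against 9529 in FMC_new (log2 fold change 0.79 ± 0.10, edgeR adjusted p = 0.00063). H2-Eb1 was at 1072 against 458 and 1995 against 1193, and H2-Ab1 also passed (0.81, 0.00521). H2-Aa, the partner chain of H2-Ab1, was at 1067 against 329 and 2059 against 1310 CPM and did not pass (1.14 ± 0.36, 0.533). B cells stood at 14294 and 15419 CPM of Cd74 and T cells, which carry little MHC class II in mice, at 1615 and 3184.

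Some genes of mature B cells were also higher. Ms4a1, which encodes CD20, was at 68.0 against 30.1 CPM in C-ON and 171 against 52.7 in FMC_new (log2 fold change 1.56 ± 0.17, edgeR adjusted p = 5.63e-05), with B cells at 754 and 801 and T cells at 0.490 and 1.01. Thinned cells with an Ms4a1 UMI were 6.56% and 14.3% of IgG-led and 3.90% and 3.90% of IgA plasma cells, against 0.122% and 0.067% of T cells. Without thinning they were 25.3% and 35.9%, 11.7% and 14.7%, and 0.242% and 0.462%. Cd79b, a signalling chain of the B cell receptor, and Ebf1, an early B cell factor, passed as well (0.48 and 0.81), which makes 3 of 7 tested with a list median of 0.48. Bank1, a B cell scaffold protein, was at 15.7 against 5.02 and 45.5 against 12.1 CPM. Of 4 germinal centre genes tested, Mef2b was higher, with 86 UMIs against 36 in C-ON and 66.6 against 29.5 CPM in FMC_new, while Bcl6, Fas and S1pr2 did not pass.

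The secretory pathway list held 25 tested genes, of which 6 were higher, 1 was lower and the median was 0.20. The higher genes were Ssr4 (log2 fold change 0.81), Fkbp11 (0.73), Pdia4 (0.52), Hsp90b1 (0.49), Creld2 (0.47) and Pdia6 (0.42), which encode translocon and chaperone proteins of the endoplasmic reticulum. Hsp90b1 was at 6534 against 4728 CPM in C-ON and 8056 against 5741 in FMC_new. Txndc5, a protein disulfide isomerase, went the other way at 346 against 1643 and 606 against 1984 CPM (-1.95 ± 0.13, edgeR adjusted p = 5.14e-06). Hspa5, the chaperone BiP, was at 2517 against 2023 and 3655 against 2793 and narrowly missed the threshold (0.36 ± 0.09, 0.055).

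**Figure D4:**
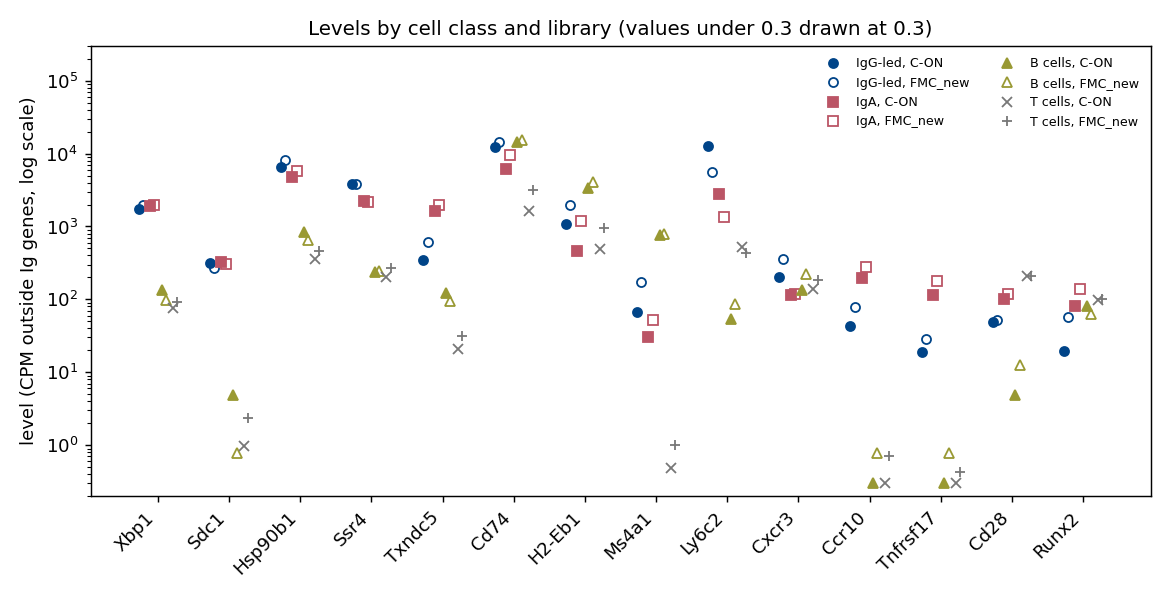
Level of 14 genes (y axis, CPM outside immunoglobulin genes, log scale) in IgG-led and IgA plasma cells, B cells and T cells of each library, with filled or first symbols for C-ON and open or second symbols for FMC_new. Ly6c2 is highest in IgG-led cells (12876 and 5587), Tnfrsf17 and Ccr10 are highest in IgA plasma cells, and Xbp1 and Sdc1 lie together in both plasma cell classes.

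The remaining lists were short, with 7 to 10 tested genes each, and few genes of each passed. Over all genes 206 of 10283 passed, so 1 gene of such a list is already a larger share. Whether any list exceeded the share over all genes was not tested. Cd274, which encodes PD-L1, was the only one of 7 tested cytokine and regulatory genes to pass, at 416 against 194 and 361 against 254 CPM, and Il10 was at 29.3 against 11.0 and 8.51 against 8.93 and did not pass. Of 9 transcription factors linked to antibody class, Runx2 was lower at 19.9 against 82.3 and 57.3 against 138 CPM (log2 fold change -1.46, edgeR adjusted p = 0.000264), while Tbx21 and Rora did not pass. Among 10 interferon-stimulated genes, Ly6c2 was higher and Isg15 lower (-0.92), and the list median was -0.52. Of 10 cell cycle genes, 0 passed in edgeR, and Mki67 was at 50.2 against 32.1 CPM in C-ON and 85.8 against 138 in FMC_new. Of 8 stress genes tested, only Fos passed, at a log2 fold change of -0.40.

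The 10 genes with the largest fitted change in each direction included several at low counts. Besides Ly6c2 and Bank1, the higher ones were Il4i1, Lipc, Cox4i2, Timd2, Ccn3, Scimp, Cyp4f18 and Pld4. Il4i1, an amino acid oxidase, had 6 and 17 UMIs in IgG-led cells and 0 in IgA plasma cells of both libraries, which is at least 2.08-fold higher in C-ON and at least 4.69-fold in FMC_new against a floor of 3 counts. Scimp, an adaptor in antigen-presenting cells, was at 107 against 14.1 and 79.5 against 20.5 CPM. Pld4, a nuclease, was at 97.3 against 18.1 and 89.1 against 29.9, and Cyp4f18, a cytochrome, at 130 against 26.1 and 82.8 against 24.1. The lower ones, besides Tnfrsf17 and Ccr10, were Rnase2a, Bmp6, Ifitm1, 4833407H14Rik, Btla, Il1rapl2, Bambi and Gm7247. Rnase2a had 0 UMIs in IgG-led cells against 19 and 24 in IgA plasma cells, at least 6.08-fold and 9.66-fold lower. Btla, an inhibitory lymphocyte receptor, was at 16.7 against 121 and 44.4 against 200 CPM (log2 fold change -2.34 ± 0.17, edgeR adjusted p = 7.27e-07).

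Transcripts of other cell types were present in these cells and in part moved with the comparison. The 7 oligodendrocyte genes reported here summed to 5629 CPM in IgG-led against 5254 in IgA plasma cells of C-ON and 4263 against 3301.5 in FMC_new, with 6695 and 4066 in T cells, and 1 of them passed (Mag, higher). The 8 T cell genes summed to 248 against 503 and 439 against 550 CPM, and 2 passed (Cd3e and Cd3g, both lower). The pituitary hormone genes Gh, Prl, Pomc and Cga summed to 1.05 against 2.01 CPM in C-ON and 12078 against 14407 in FMC_new, and Pomc and Cga passed as higher on the FMC_new values alone. Gh was detected in 99.8% of IgG-led cells and 99.9% of T cells of FMC_new, and in 0 of either in C-ON. In the kept cells outside the plasma, B and T cell classes, these hormone genes summed to 26.8 CPM in C-ON and 40894 in FMC_new. Whether all plasma cells of FMC_new came from optic nerve was not tested. The 8 myeloid genes summed to 403 against 495 and 1383 against 1076 CPM and the 8 glioma and precursor genes to 498 against 287 and 300 against 377, with 0 of each passing in edgeR. The 8 stromal genes summed to 106 against 63.3 and 109 against 79.9 CPM, mostly from Pecam1, which was the only one tested and did not pass.

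At least 2 UMIs of 2 or more genes of such a list were held by 81.7% of IgG-led cells in C-ON and 67.5% in FMC_new. For oligodendrocyte genes alone the shares were 79.0% and 62.3%, against 75.1% and 54.1% in T cells. Leaving out the cells with such genes kept 34 IgG-led and 31 IgA cells in C-ON and 213 and 180 in FMC_new. The C-ON sums fell from 955589 and 996005 to 133530 and 127790 UMIs. On these smaller sums 70 genes passed (32 higher and 38 lower of 5535 tested). Among them were Ly6c2 (log2 fold change 2.83), Cxcr3 (1.64), Ms4a1 (2.20), Cd74 (0.93), H2-Eb1 (1.41), Tnfrsf17 (-2.66), Ccr10 (-1.98), Txndc5 (-2.22) and Runx2 (-1.53). What the loss of counts alone would change was not tested. The secretory genes other than Ssr4 and Txndc5 no longer passed, nor did the mature B cell genes Cd79b (0.61, edgeR adjusted p = 0.133) and Ebf1 (0.98, 0.106), nor Epcam, Cxcr4, Bcl2, Mef2b, Cd274, Isg15, Fos and Cga. In all, 18 of the 33 named genes that could still be tested passed.

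Cells that share a variable gene pair but differ in class allow a further description, since such a comparison holds the segments constant. In FMC_new, 7 pairs had at least 10 IgG-led and 10 IgA cells. Ly6c2 was higher in the IgG-led cells in 7 of 7, at 2270 to 9553 CPM against 448 to 5122, with 7 pairs of exact Poisson intervals apart. The pair Ighv6-3 with Igkv5-43 had the highest value in both classes (9553 and 5122) and Ighv1-64 with Igkv6-17 the lowest (2270 and 448). Cxcr3 was higher in 7 of 7 (268 to 634 against 26.8 to 249 CPM, 5 apart) and Ms4a1 in 7 of 7 (104 to 316 against 0 to 175, 3 apart).

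Tnfrsf17 was lower in the IgG-led cells in 7 of 7 pairs, at 4.87 to 45.3 against 99.6 to 307 CPM. The ranges did not overlap, and the intervals were apart in 5 pairs. The IgG-led values rest on 1 to 15 UMIs per pair. Ccr10 was lower in 7 of 7 (14.3 to 115 against 187 to 462, 6 apart) and Txndc5 in 7 of 7 (350 to 781 against 1540 to 3464, 7 apart). Cd74 was higher in 6 of 7, Hsp90b1 in 4 of 7 and Xbp1 in 2 of 7. The exception for Cd74 was Ighv1-19 with Igkv1-117, at 11949 against 17106 CPM with the intervals apart. Bmp6 and Bcl2, both lower in the test, were lower in 5 of 7 pairs and higher in 2. These cells also entered the test above, so the counts are not independent of it, and cells of 1 pair in 1 library are not replicates.

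**Figure D5:**
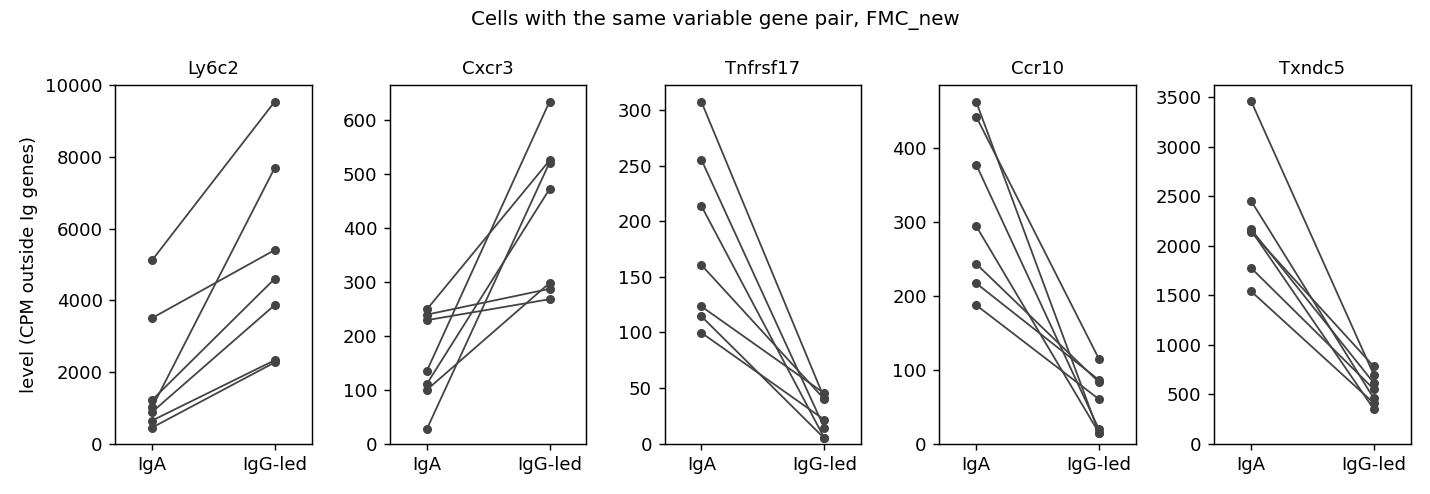
Level (y axis, CPM outside immunoglobulin genes) of Ly6c2, Cxcr3, Tnfrsf17, Ccr10 and Txndc5 in IgA and IgG-led plasma cells of FMC_new, with a line for each of the 7 variable gene pairs. Every line rises for Ly6c2 and Cxcr3 and falls for Tnfrsf17, Ccr10 and Txndc5.

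The IgG subclasses differed from each other less uniformly. Ly6c2 was higher in Ighg2c-led cells (15012 CPM in C-ON and 6798 in FMC_new) than in Ighg2b-led (6606 and 4789) and Ighg1-led cells (7382 and 3070), with the Poisson intervals of Ighg2c apart from the others in both libraries. Tnfrsf17 in FMC_new was lower in Ighg2b-led cells (14.6 CPM, 8.51 to 23.4) than in Ighg2c-led (35.6, 26.0 to 47.4) and Ighg1-led cells (58.6, 32.0 to 98.3). In C-ON its values of 10.5, 20.4 and 27.4 CPM had overlapping intervals, with 2 UMIs in each of the Ighg2b- and Ighg1-led groups. Cxcr3 was at 68.5, 379 and 173 CPM in Ighg1-, Ighg2b- and Ighg2c-led cells of C-ON, whereas in FMC_new the same classes stood close together at 368, 370 and 344. The subclasses use different variable gene pairs, above all in C-ON, where all 17 Ighg1-led cells share a single pair, so that subclass and pair cannot be told apart there.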

How the data were processed

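Both 10x Genomics 5′ gene expression libraries of Nf1-OPG optic nerve were used (n = 2). The authors deposited raw UMI counts per gene and barcode, made with Cell Ranger against the mm10 reference (32285 genes), for barcodes called as cells and without normalization. The file headers and the submitters' processing notes name version 7.2.0, the study's methods an earlier one. Whether counts include intronic reads is not given in the sources used here. Kept barcodes had 500 to 5000 genes, 500 to 20000 UMIs and at most 5% mitochondrial UMIs. An oligodendrocyte gene counted in the cell filter and in the totals but is not reported here. Free RNA was not corrected and doublets were not removed. The cell rule, the gene lists and the tests were chosen with earlier results of these data known.

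The 392 immunoglobulin genes, Jchain and Mzb1 were left out of the tested sums. Counts were summed per class and library (at least 10 cells each) and tested with edgeR 4.0.16 (R 4.3.3, filterByExpr, TMM, quasi-likelihood, library as a block because both classes come from the same suspension, Benjamini-Hochberg over all genes tested, threshold 0.05). DESeq2 1.42.0 was an alternative. On data simulated for this comparison over 9964 genes, 96.9% of genes changed by 2 on the log2 scale and 49.0% of those changed by 1 were found, with 4 false calls. The simulation gave every gene the same spread beyond counting error (dispersion) and the same class difference in both libraries. Its false calls therefore give no error rate for the real data. IgM-led and IgG-led cells were not tested against each other, since 1 cell was Ighm-led. Named genes were those of the rule and lists, the 10 with the largest fold change in each direction among genes past the threshold that differed alike in both libraries, and the 10 heavy and 10 light chain variable genes leading the most cells. Depth was 1749 to 19952 UMIs per IgG-led cell, and intervals (95%, exact) cover counting error only. All else ran in Python 3.11.15 with pandas 2.3.3, scipy 1.17.1, matplotlib 3.10.9 and numpy 2.4.6. Sequences and coordinates come from GENCODE vM21 on GRCm38.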

Additional observations from a re-analysis of the deposited data

How the results depend on the processing

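The number of cells depended on the limits tried. Other limits on Jchain, Mzb1, the leading gene, its margin over Igha or mitochondrial UMIs, or none on cells, gave 722 to 1209 cells. Without cells holding genes of another cell type there were 247 cells, 100% Ighg-led and 0 Ighm-led. With each library left out in turn, the number of cells ranged from 186 to 655, the Ighg-led share from 99.8% to 100%, the Ighg2c-led share from 44.3% to 69.9%, the Ighg2b-led share from 20.4% to 46.4%, Ighm-led cells from 0 to 1, the lambda share from 0.538% to 0.916% and the share in the 5 largest pairs from 44.6% to 59.4%. The pooled shares of 49.9% and 40.7% for Ighg2c and Ighg2b thus describe neither library.

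The count of 206 genes differing from IgA plasma cells also depended on the processing. In edgeR, without the replicate block 0 genes passed (338 at an unadjusted p under 0.05), and 0 without limits on cells (669 at an unadjusted p under 0.05). There were 386 (195 higher, 191 lower) without a filter on low counts, 452 (225 and 227) where the leading gene was at least 2 times the other class, 70 (32 and 38, with 5535 genes tested) without cells holding genes of another cell type, and 46 (26 and 20, with 4501 tested) in DESeq2. DESeq2 size factors gave 309, immunoglobulin genes in the totals 242, and leaving out the largest variable gene pair 219. The cause of these changes was not tested. Of 49 named genes past the threshold, 49 passed with DESeq2 size factors, without the filter and with the margin of 2 times, 46 without the largest pair, 19 in the DESeq2 test, and 18 of 33 without cells holding genes of another cell type. In the DESeq2 test some named genes received no adjusted p, and these are counted here as not passing. The sign changed for Cga (-0.83) and Pomc (-1.51) without limits on cells, and for Pomc with a library left out (-0.56 without FMC_new, 0.69 without C-ON). Leaving out a library left no residual degrees of freedom, so those values carry no test. The absence of limits, the other-type cells and the largest pair were alternatives chosen after seeing the data, as were variable gene minimums of 5 and 100 UMIs, under which the 5 largest pairs held 35.6% and 38.9% of paired cells.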
